A study of Homo sapiens with 6 samples.

Results

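Ribosome profiling libraries of HEK293T cells treated with an inhibitor of PRMT1 or of PRMT4 were pooled and set against DMSO. All 6 libraries of the series entered this comparison, with 2 inhibitor libraries and 1 DMSO library in each of 2 assays. The libraries were chosen by their labels alone. HEK293T is an established line of human embryonic kidney origin in which the large T antigen of SV40 is present. The groups were cells given the vehicle DMSO, cells given a PRMT1 inhibitor and cells given a PRMT4 inhibitor, each with 1 input library, read as the RNA level, and 1 footprint library, made from the RNA that ribosomes shield from nuclease. The labels give no genotype change, compound name, dose or duration, and do not say whether the cells came from separate cultures. For each gene the mean of log2(TPM + 1) over the inhibitor libraries minus the DMSO value gave a pooled mRNA ratio and a pooled footprint ratio. Footprint minus mRNA gave a pooled translation efficiency (TE) ratio. These means are the same whichever inhibitor library carries which label, so they do not depend on the labels within an assay. A gene was also said to agree where both labels lay on the same side of DMSO. Each group has 1 library per assay, so no replicate error and no test can be given, and the inhibitor libraries are different treatments rather than replicates.

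PRMT1 and PRMT4, the latter also called CARM1, transfer methyl groups from S-adenosylmethionine to arginine side chains and leave asymmetric dimethylarginine. PRMT1 acts widely on histone H4 and on proteins with repeats of arginine and glycine, many of them RNA-binding. CARM1 acts on histone H3, transcriptional coactivators, splicing factors and enzymes such as pyruvate kinase. Footprints are the stretches of message covered by a ribosome during nuclease digestion, so their density over a coding sequence reflects the message level and how many ribosomes each message carries.

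Protein-coding genes above 0 TPM numbered 16034 to 16046 in the input libraries and 14283 to 14426 in the footprint libraries, and depth is unknown because TPM keeps none. All 8 markers of HEK293T cells reached 1 TPM in at least 1 library, with sums of 533.5 to 1198 TPM, whereas 2 of 11 markers of blood, liver, fibroblasts, endothelium and muscle did so, with sums of 2.43 to 5.10 TPM. Among the latter, HBB and MYH7 were at 0 in every library, and COL1A1 was highest at 3.82 TPM. The HEK293T sums rested mostly on CKB and VIM, at 696 and 117 TPM in DMSO input. PAX2, NEFM and LHX1 reached at most 1.15, 1.97 and 2.06 TPM, below COL1A1. The protein-coding share of TPM was 45.7% in input with DMSO, 38.7% and 33.4% in the inhibitor inputs, and 74.3%, 62.3% and 70.6% in the corresponding footprints. Before centring, the median gene had a pooled log2 ratio of -0.27 in mRNA, -0.09 in footprints and 0.20 in TE. All ratios below are centred on that median over the 8117 protein-coding genes with a mean of at least 5 TPM, so 0 stands for the median gene.

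The pooled ratios were narrow in mRNA and somewhat wider in footprints. With the main settings, more genes were higher than lower among those past 1.5-fold. By definition 50% of genes lie on each side of the median gene. Past 1.5-fold in mRNA lay 54 genes (0.665% of 8117) on the higher side and 40 (0.493%) on the lower. In footprints 185 genes (2.28%) were higher and 97 (1.2%) lower by the same rule, and in TE 79 (0.973%) were higher and 57 (0.702%) lower. At 2-fold the numbers higher and lower were 3 (0.037%) and 2 (0.0246%) in mRNA, 13 (0.16%) and 2 (0.0246%) in footprints, and 8 (0.0986%) and 5 (0.0616%) in TE. Genes of low level made up much of the higher side, since 41 of the 54 in mRNA and 163 of the 185 in footprints had a mean under 20 TPM. On the lower side these were 15 of the 40 in mRNA and 37 of the 97 in footprints. Of all 8117 genes tested, 3606 had a mean of at least 20 TPM. Level moved with the ratio over all genes. With the tested genes in 5 bins by mean level, the lowest bin had medians of 0.08 in mRNA and 0.07 in footprints, and the highest bin -0.13 and -0.09. The part of level in the list medians below was not tested, and lists of abundant genes are to be read against the highest bin. The balance of directions depended on the scale, the pseudocount and the filter on low values. Of the genes past 1.5-fold in mRNA, the higher ones made up 57.4% with centring, 1.14% without it and 75.4% after rescaling TPM over nuclear protein-coding genes. The corresponding shares were 65.6%, 32.8% and 83.5% in footprints, and 58.1%, 95.8% and 69.0% in TE.

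The counts in the pool differed from those with a single label, and the reason was not tested. With the PRMT4 label alone 468 genes passed 1.5-fold in mRNA, against 66 with the PRMT1 label alone and 94 in the pool. In footprints 221 genes passed with the PRMT4 label alone, 887 with the PRMT1 label alone and 282 in the pool. In TE the numbers were 817, 706 and 136. The spread over genes was smaller for pooled TE, with a standard deviation of 0.23, than for TE taken within the PRMT1 label (0.35) or the PRMT4 label (0.36). With labels crossed it was 0.33 for PRMT1 footprints over PRMT4 input, and 0.24, near the pool, for PRMT4 footprints over PRMT1 input.

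The mRNA and footprint ratios rest on separate libraries. Across the 8117 genes they had a Pearson correlation of 0.58 and a Spearman correlation of 0.56, given as a description because genes are not independent and each ratio carries its own DMSO library. In both assays 21 genes (0.259%) were at least 1.5-fold higher, which is 38.9% of those higher in mRNA and 11.4% of those higher in footprints. A further 13 genes (0.16%) were at least 1.5-fold lower in both, or 32.5% and 13.4% of the respective lists. In the plot of pooled mRNA against pooled footprint ratios, HMOX1 was the highest gene in mRNA. In footprints it was second to a locus without a symbol whose mRNA was near the median gene.

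**Figure D1:**
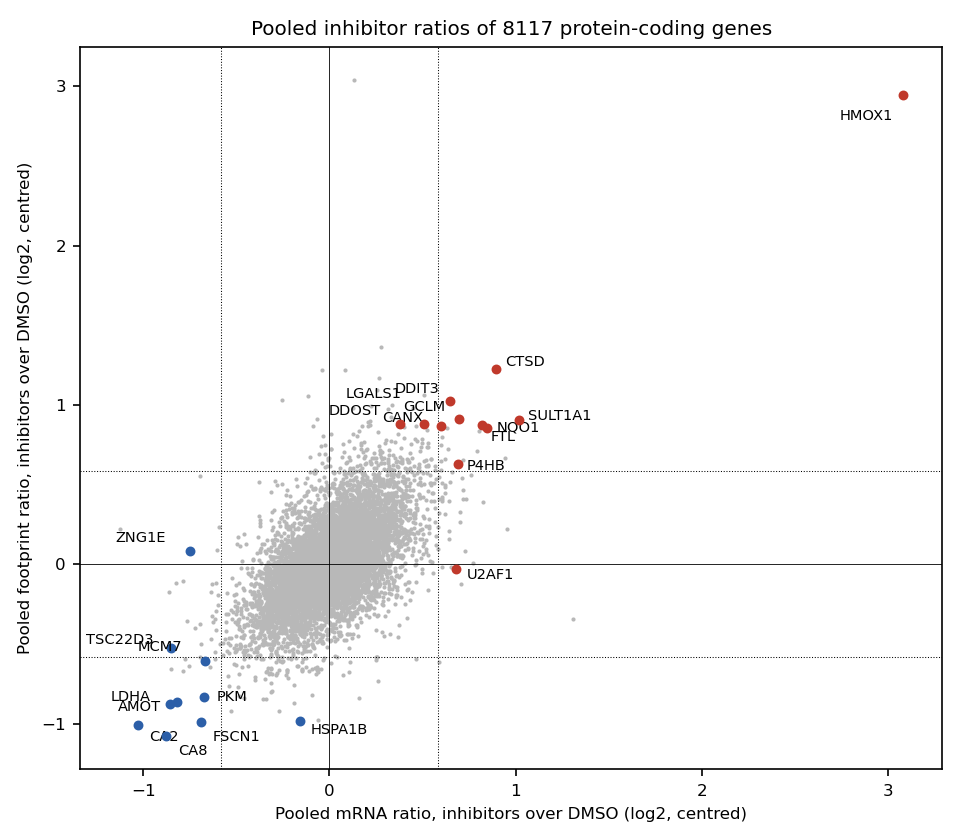
Pooled footprint ratio against pooled mRNA ratio (both centred log2, inhibitors over DMSO) for the 8117 protein-coding genes tested, 1 point per gene, with dotted lines at 1.5-fold. HMOX1 lies at 3.08 and 2.95, while CA2, LDHA, PKM and FSCN1 lie at the lower left in both assays.

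HMOX1 and 3 other genes of oxidative stress were higher in both assays. HMOX1 (ENSG00000100292.16_2), the inducible enzyme that degrades heme, stood at 7.53, 21.6 and 156 TPM in input, where each triplet gives DMSO first, then the library labelled PRMT1 inhibitor and then that labelled PRMT4 inhibitor, here and below. In footprints it stood at 33.02, 642 and 93.9 TPM. Every inhibitor library was therefore above DMSO, but the higher of the pair was the PRMT4 label in input and the PRMT1 label in footprints. The pooled ratio was 3.08 in mRNA and 2.95 in footprints. Pooled TE was -0.15, whereas TE within labels was 2.82 for PRMT1 and -3.11 for PRMT4. With input and footprint libraries of opposite labels paired, TE was -0.20 and -0.09. Whether labels were exchanged in 1 assay was not tested. In these bulk libraries, a change in the number of cells that carry a message and a change in its level per cell cannot be told apart.

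FTL (ENSG00000087086.14_3), the light chain of the iron store ferritin, was less divided between the labels. Its input levels were 336, 556 and 432 TPM and its footprint levels 102, 166 and 188 TPM, so each inhibitor library exceeded DMSO. The pooled ratios were 0.82 and 0.87, with TE near the median gene at 0.04. NQO1 (ENSG00000181019.12_2), a quinone reductase, stood at 3.75, 6.9 and 5.34 TPM in input and 12.9, 20.3 and 25.2 TPM in footprints, with pooled ratios of 0.85 and 0.85. GCLM, the modifier subunit of the enzyme that starts glutathione synthesis, stood at 9.35, 10.9 and 15.2 TPM and 5.02, 12.7 and 7.28 TPM, with 0.69 and 0.91. All 4 genes are classical targets of the oxidative stress factor NRF2, and in all 4 the inhibitor libraries lay above DMSO in both assays.

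The wider NRF2 target list did not move as a block. Of its 19 members tested, 4 were at least 1.5-fold higher in pooled mRNA and 4 in pooled footprints, against 0.665% and 2.28% of all genes. None was 1.5-fold lower, against 0.493% and 1.2%. The list median was -0.14 in mRNA and 0.07 in footprints. In mRNA 9 members lay above the median gene and 10 below it. The low members were enzymes of the pentose phosphate pathway and redox enzymes. PGD, the 6-phosphogluconate dehydrogenase, had ratios of -0.37 in mRNA and -0.44 in footprints, transketolase TKT -0.26 and -0.39, transaldolase TALDO1 -0.34 and -0.28, and aldose reductase AKR1B1 -0.30 and -0.33. The repressor BACH1, which competes with NRF2 at the HMOX1 gene, stood at 32.4, 41.7 and 34.95 TPM in input and 92.95, 93.3 and 96.1 TPM in footprints, or 0.50 and 0.11.

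Among 8 iron handling genes, FTL was the only one past 1.5-fold in either assay. Of all genes, 0.665% were higher by that much in mRNA and 2.28% in footprints. The heavy ferritin chain FTH1 stood at 534, 599 and 719 TPM in input and 805, 1075 and 872 TPM in footprints, above DMSO in every inhibitor library, with ratios of 0.57 and 0.35. The transferrin receptor TFRC lay at 0.00 and -0.04, and ACO1, the iron-sensing aconitase, at -0.24 and -0.47. The storage chains were thus the highest members, and the receptor for iron uptake lay near the median gene.

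**Figure D2:**
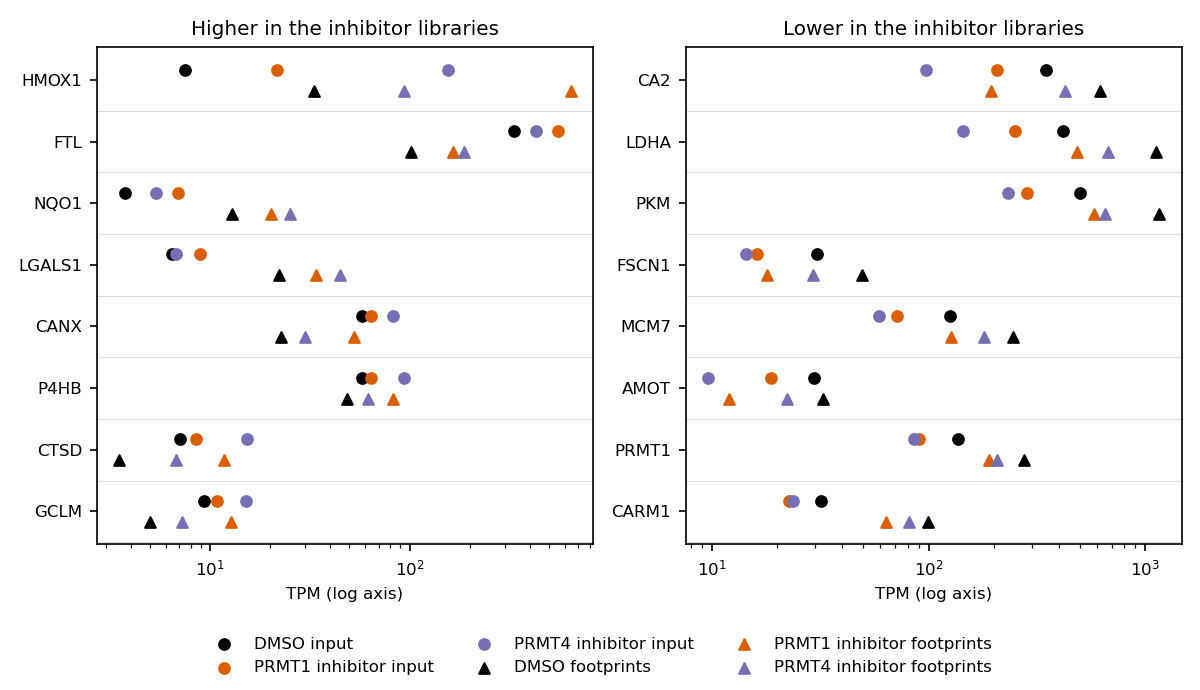
TPM (log axis) in each of the 6 libraries for 8 genes higher with the inhibitors and for 8 lower ones, including both targeted enzymes; circles are inputs and triangles footprints, black is DMSO and colours are the inhibitor labels. Within each assay the black symbol is lowest in the left panel and highest in the right panel.

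Messages of glycolytic enzymes were lower in both assays. LDHA (ENSG00000134333.13_3), which turns pyruvate into lactate, stood at 417, 251 and 144 TPM in input and 1117, 485 and 676 TPM in footprints. PKM (ENSG00000067225.17_4), the pyruvate kinase gene and a reported CARM1 substrate, stood at 499, 286 and 233 TPM and 1165, 579 and 655 TPM. Every inhibitor library lay below DMSO for both genes. The pooled ratios were -0.86 and -0.88 for LDHA, and -0.67 and -0.83 for PKM. PKM was at least 1.5-fold lower in each of the 4 inhibitor ratios taken singly, the nearest to 0 being -0.63 in input and -0.82 in footprints.

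Of 19 glycolysis genes tested, 18 lay below the median gene in mRNA and 18 in footprints. The list median was -0.26 in mRNA and -0.42 in footprints, against 0 for all genes. Both labels were below 0 for 16 of 19 in mRNA (background 29.9%) and for 17 of 19 in footprints (background 33%). All 4 inhibitor ratios were below 0 for 15 members (background 17.6%). Past 1.5-fold were 3 genes in mRNA, namely LDHA, PKM and the phosphoglycerate kinase PGK1 (-0.72), and 4 in footprints, namely LDHA, PKM, the aldolase ALDOC (-0.71) and the phosphoglycerate mutase PGAM1 (-0.70), against 0.493% and 1.2% of all genes lower by that much. PFKFB2, which makes the regulator fructose 2,6-bisphosphate, was the exception, at 0.28 and 0.40. The list's TE median was -0.16, and 0.03 without centring. LDHB, which favours the reverse reaction, was at -0.27 and -0.33.

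Promoters of glycolysis genes are textbook targets of the hypoxia-inducible factors and of MYC, whose sites share the letters ACGTG, so the 250 bases before the start site were searched for them on both strands. The letters were found in 7 of 18 glycolysis promoters with a sequence, against 18.7% of 27305 promoters and 25.2% of the promoters of 6735 tested genes. The longer ACGTGC was found in 4 of 18, against 5.85% of all promoters and 7.77% of those of tested genes. LDHA and PGK1 are shown because both are among the lowest of the list and carry more than 1 match. The sequences are from RefSeq on GRCh38.p14, plus strand, chr11:18394313-18394562 for LDHA and chrX:78103998-78104247 for PGK1, with ACGTG or its reverse complement CACGT in capitals. A palindromic CACGTG reads as both. A match describes letters and is not a site.
LDHA: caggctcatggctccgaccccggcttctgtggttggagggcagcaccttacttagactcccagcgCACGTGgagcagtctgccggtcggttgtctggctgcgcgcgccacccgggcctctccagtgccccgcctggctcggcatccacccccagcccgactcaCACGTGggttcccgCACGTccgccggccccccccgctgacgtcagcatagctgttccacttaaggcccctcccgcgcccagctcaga
PGK1: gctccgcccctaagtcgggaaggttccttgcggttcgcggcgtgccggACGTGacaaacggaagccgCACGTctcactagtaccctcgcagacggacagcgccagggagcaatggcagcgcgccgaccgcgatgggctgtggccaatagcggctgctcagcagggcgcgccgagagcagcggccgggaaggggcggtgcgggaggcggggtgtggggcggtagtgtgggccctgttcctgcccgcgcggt

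Other hypoxia-inducible genes, listed apart from glycolysis, had medians of -0.32 in mRNA and -0.28 in footprints over 11 members, of which 9 lay below the median gene in each assay. NDRG1, a stress-responsive differentiation gene, was at -0.36 and -0.60. DDIT4, an inhibitor of mTORC1, was at -0.54 and -0.55, and EGLN3, a prolyl hydroxylase that marks HIF for decay, at -0.51 and -0.52. VEGFA, the vascular growth factor, was at 0.06 and 0.16. The factor MYC itself stood at 171, 124 and 80.1 TPM in input and 456, 225 and 386 TPM in footprints, lower than DMSO in each inhibitor library, with pooled ratios of -0.50 and -0.54. In the list of 14 immediate early genes it belongs to, 9 members lay above the median gene in mRNA and 8 below it in footprints.

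The lowest pooled ratios belonged to genes of several unrelated roles. CA2 (ENSG00000104267.9_2), carbonic anhydrase 2, which interconverts carbon dioxide and bicarbonate, stood at 350.3, 206 and 97.1 TPM in input and 620.1, 195 and 429 TPM in footprints. Its pooled ratios were -1.03 and -1.01, the lowest in each assay among genes with a mean of at least 20 TPM. CA8, a relative that lacks the enzyme activity, stood at 8.73, 4.58 and 2.45 TPM and 20.4, 6.02 and 11.9 TPM, with -0.88 and -1.08. As with HMOX1, the further displaced library of CA2 was the PRMT4 label in input and the PRMT1 label in footprints.

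FSCN1, which bundles actin filaments, stood at 30.5, 16.1 and 14.3 TPM in input and 49.4, 17.9 and 29.2 TPM in footprints, with pooled ratios of -0.69 and -0.99. It was lower by at least 1.5-fold in all 4 inhibitor ratios. The replicative helicase subunit MCM7 stood at 126, 71.3 and 59.1 TPM and 245, 127 and 181 TPM, with -0.67 and -0.61. The retinaldehyde dehydrogenase ALDH1A2 was at -0.76 and -0.64, the cyclin CCND1 at -0.64 and -0.65, the mitochondrial ribosomal protein MRPL23 at -0.62 and -0.60, and the LIM protein CSRP2 at -0.77 and -0.59. TSC22D3, a leucine zipper protein induced by glucocorticoids, stood at 80.6, 33.1 and 40.2 TPM in input and 97.7, 71.4 and 56.8 TPM in footprints, or -0.85 and -0.52. All of these lay below DMSO in every inhibitor library.

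The angiomotins, scaffolds that hold the coactivator YAP at cell junctions, went to opposite ends. AMOT stood at 29.7, 18.7 and 9.6 TPM in input and 32.6, 12.03 and 22.3 TPM in footprints, with pooled ratios of -0.82 and -0.86. Its relative AMOTL2, itself a YAP target, stood at 3.26, 3.92 and 6.69 TPM and 6.69, 13.2 and 10.8 TPM, with 0.80 and 0.84. The 16-gene list of the Hippo-YAP pathway centred near the median gene, at -0.09 and -0.11, and no other member passed 1.5-fold. Of all genes, 0.665% were higher and 0.493% lower by that much in mRNA, and 2.28% and 1.2% in footprints.

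Genes at least 1.5-fold away in all 4 inhibitor ratios were few. There were 6 higher (0.0739%) and 3 lower (0.037%). The higher ones were HMOX1, FTL, NQO1, the meiotic recombinase DMC1, the sulfotransferase SULT1A1 and a locus without a symbol, and the lower ones were PKM, FSCN1 and CA8. SULT1A1 has near-identical copies, so its 3.87, 5.92 and 8.6 TPM in input and 5.0, 10.4 and 8.78 TPM in footprints are uncertain. DMC1 stood at 6.16, 11.8 and 7.26 TPM and 12.3, 18.3 and 20.8 TPM. With the threshold set aside, all 4 ratios were above 0 for 1335 genes (16.4%) and below 0 for 1427 (17.6%).

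Agreement of both labels within 1 assay was wider. In mRNA 9 genes (0.111%) were at least 1.5-fold higher under both labels and 14 (0.172%) lower. In footprints 61 genes (0.752%) were higher and 29 (0.357%) lower. The labels share the DMSO library of their assay, which can by itself place genes on the same side. Both labels were above 0 for 29.9% of genes and below 0 for 29.9% in mRNA, and for 33% and 33% in footprints. Of the 54 genes called higher in pooled mRNA, 53 had both labels above 0 and 9 had both past 1.5-fold. Of the 97 called lower in pooled footprints, all 97 had both labels below 0 and 29 had both past 1.5-fold. At the threshold of 0.585 in log2, the last gene inside on the higher side of mRNA was DMC1, with its lesser ratio at 0.59, and the first outside was TLCD3A at 0.58. In footprints these were PPIP5K1 at 0.59 and YPEL3 at 0.58.

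**Figure D3:**
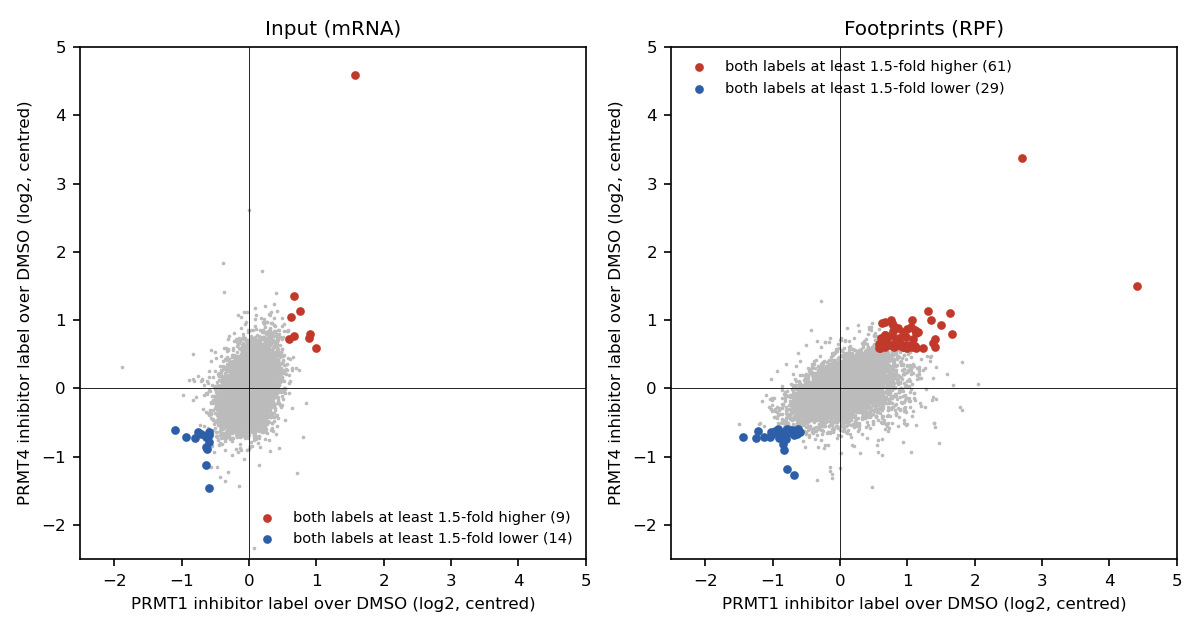
Centred log2 ratio over DMSO of the PRMT4 inhibitor label against that of the PRMT1 inhibitor label, for input and for footprints, 1 point per tested gene. Coloured points are genes at least 1.5-fold away from DMSO the same way under both labels, 9 and 14 in input and 61 and 29 in footprints; both axes share a DMSO library.

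UNKL, below only HMOX1 and FTL in pooled mRNA among named genes with a mean of at least 20 TPM, shows a pooled value that does not rest on agreement. It stood at 12.8, 14.1 and 21.7 TPM in input and 22.03, 48.8 and 21.6 TPM in footprints, so its footprint ratio of 0.63 came from the PRMT1 label alone.

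Among the genes agreeing in footprints, LGALS1, a galectin that binds cell surface glycans, stood at 6.43, 8.86 and 6.73 TPM in input and 22.1, 33.8 and 44.8 TPM in footprints, with pooled ratios of 0.51 and 0.88. GABARAPL1, an autophagosome protein, had 0.35 and 0.77. The myosin light chain MYL6B had 0.19 and 0.76, and TMEM14C, a mitochondrial protein of heme synthesis, 0.32 and 0.61. On the lower side, the methyltransferase family member COMTD1 stood at 37.8, 18.5 and 19.6 TPM in footprints, a ratio of -0.87, and PRPS2, which makes the ribose donor of nucleotide synthesis, at 148, 60.1 and 88.8 TPM, a ratio of -0.92. The cytosolic chaperone HSP90AB1 had -0.40 in mRNA and -0.71 in footprints. HSPA1B, with -0.98 in footprints, has a near-identical copy and is uncertain.

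CANX (ENSG00000127022.14_3), the membrane-bound chaperone calnexin of the endoplasmic reticulum (ER), stood at 57.8, 64.05 and 82.5 TPM in input and 22.7, 52.4 and 30.1 TPM in footprints, a pooled ratio of 0.60 and 0.87. P4HB, a protein disulfide isomerase, stood at 57.8, 63.8 and 93.98 TPM and 48.7, 82.6 and 61.8 TPM, with 0.69 and 0.63. The calcium-binding chaperone CALR, chosen here for its promoter after its values were seen, stood at 36.2, 43.3 and 44.8 TPM and 14.3, 21.4 and 17.8 TPM, with 0.55 and 0.51. All 3 were above DMSO in TPM in every inhibitor library.

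Of 19 ER chaperone and unfolded protein response genes, 17 lay above the median gene in mRNA and 15 in footprints, with 4 and 2 at least 1.5-fold higher, against 0.665% and 2.28% of all genes. The list median was 0.26 in mRNA, which is -0.02 without centring, and 0.37 in footprints (0.28 without centring). Both labels were above 0 for 14 members in mRNA (background 29.9%) and 12 in footprints (background 33%). PDIA6, another disulfide isomerase, was at 0.73 and 0.41, and the co-chaperone DNAJB11 at 0.61 and 0.51. The major ER chaperone HSPA5 stood at 4.88, 4.7 and 3.96 TPM in input and 8.37, 9.63 and 10.8 TPM in footprints, with 0.13 and 0.34. HERPUD1, a component of ER-associated degradation, was at -0.16 and -0.26, and the transcription factor XBP1 at -0.02 and -0.03. HERPUD1 was the lowest member in both assays.

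Promoters of ER chaperone genes are known for the ER stress response element, spelt CCAAT, then any 9 bases, then CCACG, and searched on both strands. In the 250 bases before the start these letters occurred in 5 of 17 list promoters, those of CALR, CANX, HSP90B1, HSPA5 and XBP1, against 0.0806% of 27305 promoters and 0.148% of those of tested genes. Several of these genes are the textbook carriers of the element, so the share is not independent of how the list was made. CANX and CALR are printed because they are the carriers with the highest pooled ratios, from RefSeq on GRCh38.p14, plus strand, chr5:179698679-179698928 and chr19:12938359-12938608, with the match in capitals. The match of CALR is on the opposite strand.
CANX: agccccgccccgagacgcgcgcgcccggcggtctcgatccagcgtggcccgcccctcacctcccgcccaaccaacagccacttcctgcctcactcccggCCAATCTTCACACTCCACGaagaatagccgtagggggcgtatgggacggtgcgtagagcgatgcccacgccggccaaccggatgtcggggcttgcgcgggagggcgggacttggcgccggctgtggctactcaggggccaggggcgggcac
CALR: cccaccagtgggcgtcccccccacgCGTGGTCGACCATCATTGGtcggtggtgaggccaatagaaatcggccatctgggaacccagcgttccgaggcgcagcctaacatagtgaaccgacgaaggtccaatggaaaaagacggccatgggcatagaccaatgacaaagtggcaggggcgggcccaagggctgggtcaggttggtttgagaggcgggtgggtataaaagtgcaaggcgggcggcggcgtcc
In all, 8 combinations of motif and list were searched, and all but ACGTG were picked with values known. For NRF2 targets, TGANNNNGC was found in 5 of 14 promoters against 35.4% of all, and TGACTCAGC and TGAGTCA each in 1 of 14 against 0.465% and 4.16%. TTGCATCA and its reverse complement TGATGCAA were in 0 of 22 promoters of integrated stress response genes, against 0.82% of all.

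Genes of the translocon, the oligosaccharyltransferase and the signal recognition particle, which bring proteins into the ER, had medians of 0.21 in mRNA (-0.06 without centring) and 0.16 in footprints (0.08), with 24 and 25 of 32 above the median gene. DDOST, an oligosaccharyltransferase subunit, stood at 21.04, 19.6 and 26.2 TPM in input and 17.8, 40.04 and 24.7 TPM in footprints, or 0.38 and 0.88. RPN1, of the same complex, was at 0.31 and 0.64. The signal recognition particle subunit SRP68 was at -0.30 and -0.07, and SRP9 at -0.12 and -0.21. Of the particle's 6 subunits tested, SRP54 alone lay above the median gene in mRNA, at 0.09.

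Lysosomal genes had medians of 0.24 in mRNA (-0.03 without centring) and 0.29 in footprints (0.20), with 17 and 16 of 20 above the median gene. The protease CTSD stood at 7.11, 8.49 and 15.4 TPM in input and 3.51, 11.7 and 6.74 TPM in footprints, with pooled ratios of 0.89 and 1.23, above DMSO throughout. The sphingolipid activator PSAP was at 0.62 and 0.50, and the growth factor precursor GRN at 0.38 and 0.64. CTSA, a carboxypeptidase, was at 0.77 in mRNA and 0.01 in footprints. Subunits of the proton pump were spread from ATP6V0A1, at 0.34 and 0.63, to ATP6V1A, at -0.35 and -0.34.

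Messages that p53 induces had medians of 0.25 in mRNA (-0.02 without centring) and 0.24 in footprints (0.15), with 17 and 15 of 20 above the median gene. By label the medians were 0.07 for PRMT1 and 0.43 for PRMT4 in mRNA, and 0.39 and 0.04 in footprints. Both labels were above 0 for 11 members in mRNA (background 29.9%) and 11 in footprints (background 33%). GADD45A, a growth arrest gene, stood at 11.03, 12.4 and 19.03 TPM in input and 15.7, 24.4 and 17.4 TPM in footprints, or 0.72 and 0.46. The cyclin-dependent kinase inhibitor CDKN1A stood at 12.9, 10.7 and 22.03 TPM in input, where the PRMT1 label was below DMSO, and 18.3, 35.7 and 21.3 TPM in footprints, or 0.52 and 0.66. PHLDA3, an inhibitor of AKT, was at 0.63 and 0.86. Large T antigen binds p53 in this line.

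The integrated stress response list showed what pooling removes. Its 26 members had pooled medians of 0.03 in mRNA, 0.01 in footprints and -0.01 in TE. By label the mRNA medians were -0.22 for PRMT1 and 0.30 for PRMT4, and the footprint medians 0.27 and -0.24. The list thus lay on opposite sides under the labels, and on opposite sides in the assays of 1 label. DDIT3, the pro-apoptotic factor CHOP, was higher throughout, at 6.98, 8.18 and 10.7 TPM in input and 5.24, 13.6 and 8.8 TPM in footprints, with 0.65 and 1.02. The amino acid transporter subunit SLC3A2 was at 0.62 and 0.48, and CBS, of transsulfuration, at -0.08 and -0.65.

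**Figure D4:**
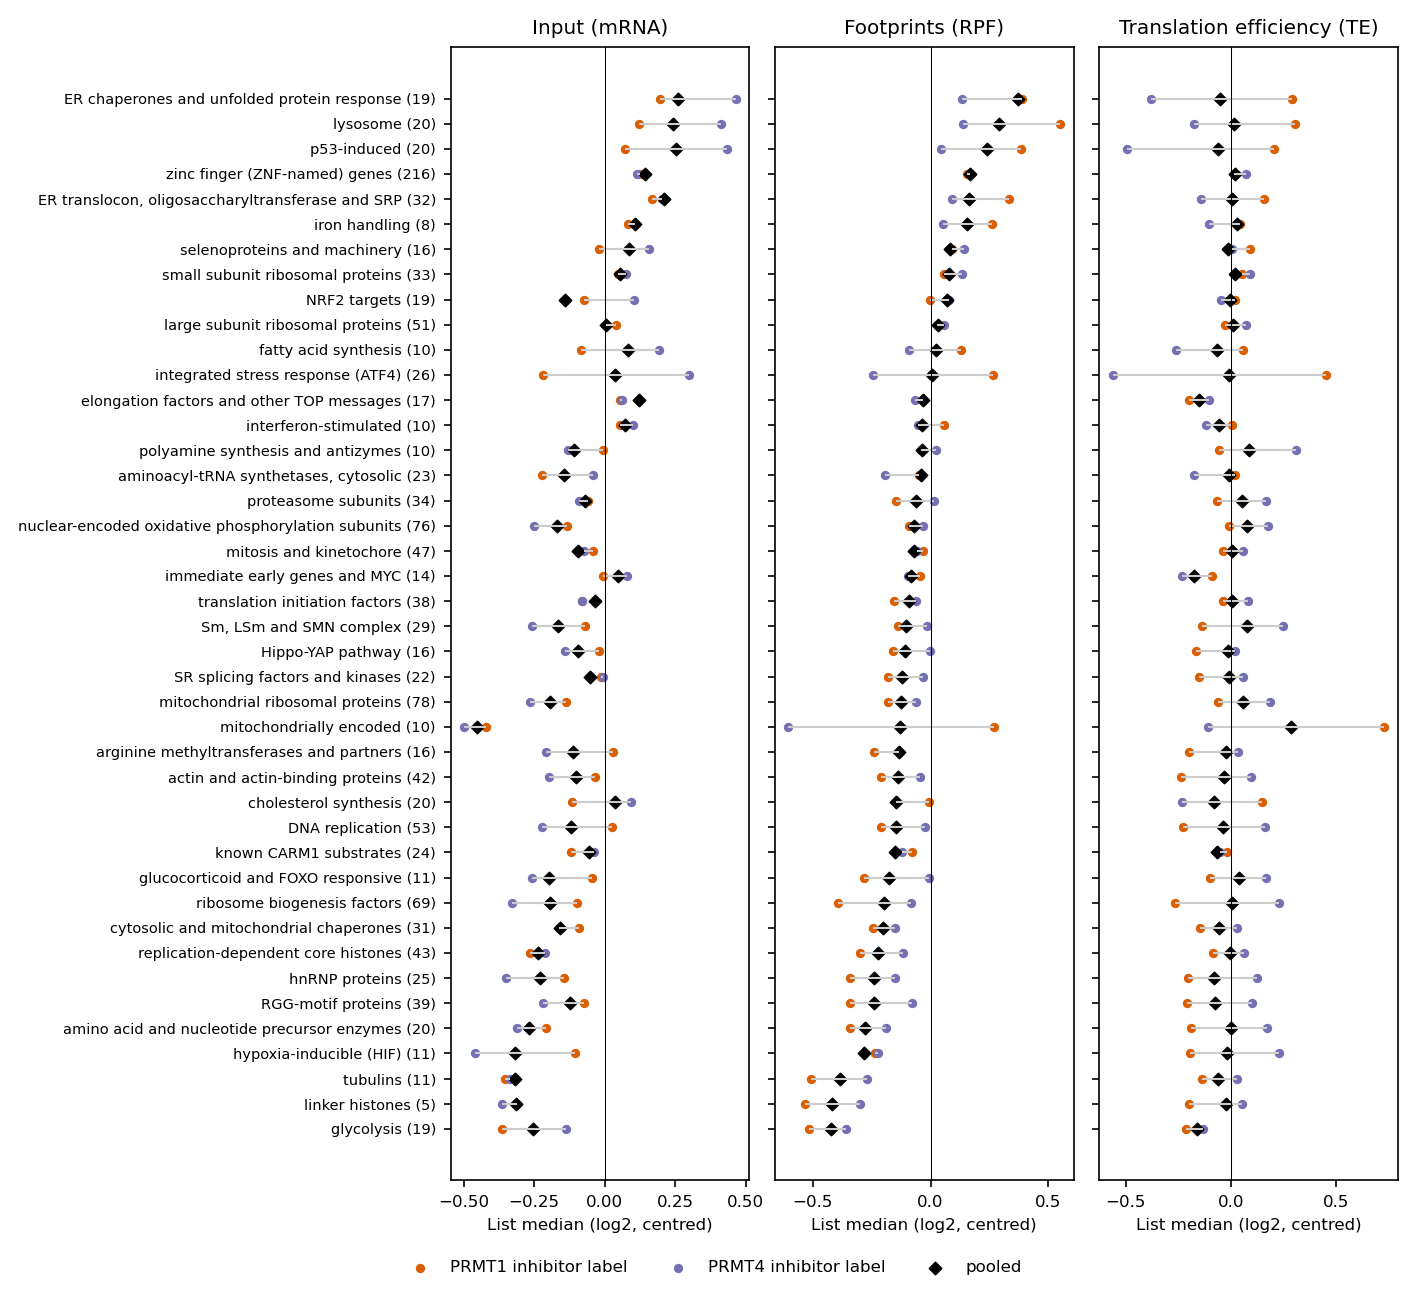
Median centred log2 ratio of each gene list in mRNA, footprints and TE, with the number of members tested in brackets; diamonds are the pooled ratio and coloured points the separate labels, ordered by the pooled footprint median. In footprints linker histones (-0.42) and glycolysis (-0.42) lie lowest and ER chaperones (0.37) highest, while the integrated stress response has label medians on opposite sides of 0.

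The messages of the targeted enzymes had lower TPM in every inhibitor library, on a scale where the median gene was lower too. PRMT1 (ENSG00000126457.21_3) stood at 136, 90.7 and 86.1 TPM in input and 276, 190.0 and 207 TPM in footprints, with pooled ratios of -0.35 and -0.39. CARM1 (ENSG00000142453.11_3) stood at 32, 22.8 and 23.6 TPM and 99.9, 63.4 and 81.1 TPM, with -0.17 and -0.39. On the centred scale neither passed 1.5-fold, and CARM1 was at -0.30 in input under the PRMT1 label and at -0.04, near the median gene, under the PRMT4 label. In the family and its partners, 16 genes had medians of -0.11 and -0.14. WDR77, the partner of PRMT5 also called MEP50, was at -0.25 and -0.58, PRMT5 itself at -0.28 and -0.15, and PRMT2 at 0.18 and 0.27. SMN1, at -0.98 in footprints, has a near-identical copy and is uncertain.

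RNA-binding proteins that carry arginine and glycine repeats were mostly lower in footprints. Of 39 such genes, 32 lay below the median gene in footprints and 30 in mRNA, with medians of -0.24 and -0.12. By label the footprint medians were -0.34 for PRMT1 and -0.08 for PRMT4, and the mRNA medians -0.07 and -0.22. Both labels were below 0 for 26 members in footprints (background 33%) and 22 in mRNA (background 29.9%). The highest bin of all genes by level had -0.09 in footprints and -0.13 in mRNA, near the mRNA median of this list. G3BP1, a stress granule nucleator, stood at 391, 231 and 174 TPM in input and 663, 414 and 469.6 TPM in footprints, with -0.69 and -0.50. Its relative G3BP2 was at -0.62 and -0.34, and nucleolin, NCL, at -0.29 and -0.70. CIRBP, the cold-inducible RNA-binding protein, was at the other end with 0.27 and 0.30. These lists overlap, as several of the genes are also hnRNP proteins.

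The hnRNP proteins, which package nuclear pre-mRNA, had medians of -0.23 in mRNA and -0.24 in footprints, and 23 of 25 lay below the median gene in each assay. HNRNPC was at -0.55 and -0.36, HNRNPK at -0.51 and -0.26, HNRNPL at -0.34 and -0.67, and the splicing repressor PTBP1 at -0.29 and -0.56. HNRNPA1 differed between the assays, with -0.24 in mRNA and 0.12 in footprints. Smaller medians were found for SR splicing factors and their kinases (-0.05 and -0.12), the Sm, LSm and SMN genes (-0.17 and -0.10), and the reported CARM1 substrates (-0.06 and -0.15). Among the 24 substrates tested PKM was the only gene past 1.5-fold, against 0.493% of all genes lower by that much in mRNA and 1.2% in footprints.

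Ribosome biogenesis factors had medians of -0.19 in mRNA and -0.20 in footprints, with 64 and 60 of 69 below the median gene, and nucleophosmin, NPM1, was at -0.56 and -0.31. Enzymes of amino acid and nucleotide precursor synthesis had -0.27 and -0.28, with 19 and 18 of 20 below it. The folate enzyme MTHFD1 was at -0.31 and -0.65, and the nucleoside diphosphate kinase NME1 at -0.45 and -0.26. DNA replication genes were closer to the median gene, at -0.12 and -0.15 over 53 members, with the ribonucleotide reductase subunit RRM1 at -0.38 and -0.51 and the DNA methylation cofactor UHRF1 at -0.15 and -0.67. Mitosis genes had -0.09 and -0.07. The medians of the replication and mitosis lists lay near those of the highest bin of all genes by level, -0.13 and -0.09.

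All 5 linker histones tested lay below the median gene in both assays, with medians of -0.32 and -0.42. H1-3 stood at 243, 169 and 72.4 TPM in input and 262, 113 and 215 TPM in footprints, or -0.85 and -0.66. Core histones that depend on replication had -0.24 and -0.22 over 43 genes, and because these genes are near-identical their single values are uncertain. Tubulin genes had -0.32 and -0.39, with 10 and 11 of 11 below the median gene. TUBA1B stood at 1844, 1218 and 1012 TPM and 2437, 1527 and 2001 TPM, or -0.46 and -0.39, and TUBB was at -0.38 and -0.46. Actin and actin-binding proteins had -0.10 and -0.14, close to the highest bin by level, with FSCN1 lowest, with the crosslinker ACTN1 at -0.32 and -0.69 and FLNA at 0.54 and 0.02.

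The medians of 3 lists of mitochondrial genes lay below the median gene in both assays, except that the footprint median of oxidative phosphorylation subunits was 0.0043 after rescaling TPM over nuclear protein-coding genes. Nuclear-encoded oxidative phosphorylation subunits had a median of -0.17 in mRNA, with 67 of 76 below the median gene, and -0.07 in footprints, with 55 below it. Their TE median was 0.07, with 54 of 76 above the median gene. Mitochondrial ribosomal proteins had -0.19 and -0.12, with 68 and 63 of 78 below it. Messages made in the mitochondrion itself had -0.45 in mRNA, and all 10 lay below the median gene in mRNA and in footprints. In footprints their pooled median of -0.13 joined 0.27 for the PRMT1 label and -0.60 for the PRMT4 label. Their DMSO footprint levels ran from 1.35 TPM for MT-ND4 to 44.9 TPM for MT-ATP8, low beside their DMSO input levels of 17.1 to 95.5 TPM for MT-CYB and MT-CO2.

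Genes named ZNF, most of which encode DNA-binding zinc finger proteins, were higher on the centred scale. Of 216 such genes that passed the filter, out of 509 in the table, 166 lay above the median gene in mRNA and 159 in footprints. The medians were 0.14 in mRNA, which is -0.13 without centring, and 0.17 in footprints, which is 0.08. In footprints 19 were at least 1.5-fold higher and none lower, against a background of 2.28% higher, and 9 were so under both labels, against 0.752%. ZNF512 stood at 3.39, 10.1 and 7.3 TPM in footprints, a ratio of 1.22, with -0.04 in mRNA. ZNF780A stood at 5.12, 10.3 and 10.3 TPM, with 0.98 in footprints and 0.13 in mRNA. The lowest of the 5 bins by level had 0.08 and 0.07, and the part of level in this result was not tested.

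The translation machinery stayed near the median gene in most lists. Large subunit ribosomal proteins had medians of 0.00 in mRNA and 0.03 in footprints over 51 genes, and small subunit ones 0.05 and 0.08 over 33. None of either list passed 1.5-fold in either assay or in TE. Few of all genes did so, with 0.665% higher and 0.493% lower in mRNA. The shares were 2.28% and 1.2% in footprints, and 0.973% and 0.702% in TE. Initiation factors had -0.03 and -0.09, and the elongation factors and other messages with a 5′ terminal oligopyrimidine tract 0.12 and -0.03, with a TE median of -0.15 (0.05 without centring). EEF1G was at -0.38 and RPLP1 at -0.51 in TE, while RPL36A was at 0.57 and RPS29 at 0.45. Cytosolic aminoacyl-tRNA synthetases had -0.14 in mRNA and -0.04 in footprints. The valine enzyme VARS1 was at -0.31 and -0.75 and the cysteine enzyme CARS1 at 0.16 and 0.46. Proteasome subunits had -0.07 and -0.06, cholesterol synthesis genes 0.03 and -0.15, and interferon-stimulated genes 0.07 and -0.03. The medians of cytosolic and mitochondrial chaperones were -0.16 and -0.20, of selenoprotein genes 0.09 and 0.08, of polyamine genes -0.11 and -0.04, of fatty acid synthesis genes 0.08 and 0.02, and of glucocorticoid and FOXO responsive genes -0.20 and -0.18.

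Translation efficiency was examined under every pairing of libraries, since the pooled value does not depend on it. All 4 pairings were at least 1.5-fold higher for 10 genes (0.123%) and lower for 7 (0.0862%). Pairing by label alone gave 22 (0.271%) and 18 (0.222%), and the crossed pairing alone 21 (0.259%) and 17 (0.209%). All 4 were above 0 for 16.3% of genes and below 0 for 16.2%. The higher ones included STX8, ARMCX5, ZNF512, ZNF780A, CCZ1B, TVP23C and CKMT1A, of which the last 3 have near-identical copies and are uncertain. The lower ones with a symbol were TUT1, CHD3, PTPN12, TLCD3A and TMEM9B.

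Among genes with a mean of at least 20 TPM and TE above the median gene in every pairing, input was often lower and footprints higher. LSM10, a subunit of the U7 particle that matures histone messages, stood at 24.3, 16.9 and 16.8 TPM in input and 39.3, 47.5 and 55.6 TPM in footprints, a pooled TE of 0.68 with pairings from 0.54 to 0.82. CHCHD3, which shapes the inner mitochondrial membrane, stood at 63.5, 44.9 and 39.1 TPM and 1769, 2630.4 and 1979 TPM, with 0.76. In both genes the inhibitor inputs were below DMSO and the inhibitor footprints above it. ZNF33B had 0.71, BBIP1, of the ciliary BBSome, 0.57, the transcription factor UBP1 0.63, and ARL2BP, a partner of the GTPase ARL2, 0.66.

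Genes of the same level with TE below the median gene in every pairing were of 2 kinds, some with lower footprints and some with higher input on the centred scale. TUT1, the U6 uridylyltransferase, stood at 17.6, 15.6 and 15.7 TPM in input and 32.2, 18.1 and 20.97 TPM in footprints, a pooled TE of -0.73. The calpain CAPN1 stood at 18.6, 13.9 and 14.5 TPM and 56.5, 26.4 and 33.4 TPM, with -0.73, and COMTD1 had -0.69. YBX3, a cold-shock domain protein that binds messages, stood at 134, 110.0 and 101 TPM and 424, 259 and 245 TPM, with -0.61. CNOT2, a scaffold of the CCR4-NOT deadenylase, had -0.54 and the actin regulator ENAH -0.61. SKIC2, the helicase of the cytosolic exosome's Ski complex, had the lowest pooled TE among genes with a mean of at least 20 TPM, at -0.86, with pairings from -1.47 to -0.25. COG6, a subunit of a Golgi tethering complex, stood at 5.94, 7.68 and 6.92 TPM in input and 43.8, 40.3 and 45.7 TPM in footprints, with 0.53 in mRNA, 0.06 in footprints and -0.48 in TE. U2AF1, with 0.68, -0.03 and -0.72, has a near-identical copy and is uncertain.

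**Figure D5:**
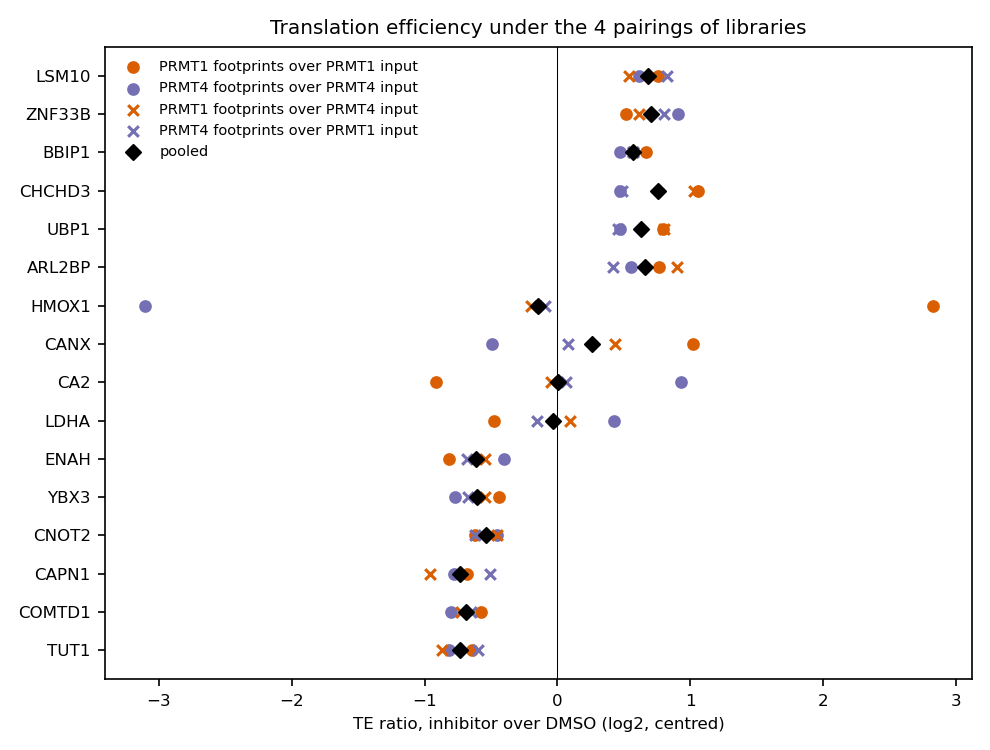
Centred log2 TE ratio of 16 genes under the 4 pairings of inhibitor footprints with inhibitor input (circles within a label, crosses between labels) and pooled (diamonds). The 6 genes at the top and the 6 at the bottom keep their side in all pairings, whereas HMOX1, CANX, CA2 and LDHA have circles on both sides of 0 and diamonds from -0.15 to 0.26.

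For HMOX1, CANX, CA2 and LDHA the label pairings of TE lay on opposite sides. TE of CANX was 1.02 within the PRMT1 label and -0.49 within the PRMT4 label, and 0.44 and 0.08 crossed. For CA2 it was -0.91 and 0.93 within labels and -0.05 and 0.06 crossed. The pooled values of 0.26 for CANX and 0.01 for CA2 lay between, because the mean over pairings is fixed.

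Of the gene properties compared, level had the widest span in pooled mRNA, from 0.08 in the lowest bin to -0.13 in the highest. Over 5 bins of GC content, the pooled mRNA median ran from -0.01 in the lowest bin to 0.03 in the highest, whereas the PRMT1 label ran from 0.11 to -0.09 and the PRMT4 label from -0.12 to 0.16. The labels thus had opposite slopes, which cancelled in the pool. Pooled footprint medians ran from 0.03 to -0.03 over the same bins. By transcript length, pooled mRNA ran from -0.07 in the shortest bin to 0.03 in the longest. By TE in DMSO, pooled footprints ran from 0.11 in the least loaded bin to -0.07 in the most loaded one, where the DMSO footprints enter both quantities.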

How the data were processed

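RNA levels (input) and ribosome-protected fragments (RPF, footprints) were measured in HEK293T cells, in 6 libraries. The deposited values are TPM per gene, with 2 decimals, estimated by the authors; the submitters' processing notes name GRCh37.p13, cutadapt 1.18, Bowtie 1.1.2, STAR 2.4.2a and RSEM 1.2.22 without their roles. The labels describe every library as ribosome-protected RNA, and the sources used here do not say how the input was made. TPM keeps no depth, so no counting interval can be given.

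Of 60461 identifiers, 41 duplicate entries of the pseudoautosomal Y region, all at 0, were dropped. Symbols were matched for 40478 and gene types for 56157, the latter from GENCODE 29. Values were taken as log2(TPM + 1), which understates changes of low genes, and centred on the median of the 8117 protein-coding genes with mean TPM of at least 5. A difference of at least 1.5-fold was called. Labels assigned all samples to groups.

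Genes were named if they had a symbol, a mean of at least 20 TPM (5 for lists) and were among the 8 highest or lowest in a pooled ratio or in the agreement of the labels, or among the 3 highest or lowest of a list. PRMT1 and CARM1 were named throughout, and 1 gene the rule would name is not reported here. Other genes, such as those at a threshold or in a small count, were named after their values were seen. Members and lists were chosen with earlier results of these data known. Loci without a symbol were left out of the naming after a first ranking, and older symbols were matched after few tRNA synthetases had been found. GC content and length are those of the longest GENCODE 29 transcript. Promoters were the 250 bases before RefSeq starts. The pooled mRNA and footprint calls were tested on simulated data in which both inhibitor libraries carried the same change. No change in TE was simulated, and agreement, pairings and lists were not tested in this way. The analysis used Python 3.11.15 with pandas 2.3.3, numpy 2.4.6 and statsmodels 0.14.6. In all, 12 alternatives were tried.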

Additional observations from a re-analysis of the deposited data

Results flagged for a closer look

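Of 126 list medians compared between the labels, 50 had opposite signs, and 7 of these were at least 0.2 from 0 under both labels, a limit set after the values were seen. None of these differences was tested, because each label has 1 library per assay. For the integrated stress response the PRMT1 label minus the PRMT4 label was -0.22 minus 0.30, or -0.52, in mRNA. In footprints the difference was 0.51, and in TE it was 1.01, with 0.45 for PRMT1 and -0.56 for PRMT4. The TE difference was 0.70 for p53-induced genes (0.20 and -0.49), 0.67 for ER chaperones (0.29 and -0.38) and -0.49 for ribosome biogenesis factors (-0.26 and 0.23). The footprint difference of mitochondrially encoded genes was 0.87, from 0.27 and -0.60.

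RNA classes outside the protein-coding genes exceeded DMSO in both inhibitor libraries in 28 cases. The 12 that held at least 0.5% of the DMSO TPM, a limit also set after the values were seen, follow as the mean share of TPM under the inhibitors. In input, small nuclear RNA held 17.3%, against 9.75% in DMSO, with 16.6% and 18.01% by label. Other input classes were non-coding genes at 22.4% (DMSO 19.7%), antisense genes at 3.22% (2.72%), long intergenic RNA at 1.497% (1.37%) and small nucleolar RNA at 1.09% (0.947%). In footprints, sense intronic RNA held 4.83%, against 2.75% in DMSO, with 4.66% and 5.004% by label. Small nucleolar RNA held 2.41% of footprint TPM, but 3.79% under the PRMT1 label and 1.03% under the PRMT4 label, against 0.809%. The remaining footprint classes were small nuclear RNA at 6.89% (5.82%), long intergenic RNA at 5.67% (4.27%), processed pseudogenes at 5.01% (4.74%), miscellaneous RNA at 2.24% (1.80%) and mitochondrial tRNA at 0.706% (0.565%). Antisense reads cannot be told from their partners' where strand was not used, on which the sources used here are silent.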

How the results depend on the processing

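No paired analysis was possible because each group has 1 library per assay. Genes past 1.5-fold numbered 94 in pooled mRNA, 282 in footprints and 136 in TE. These became 36, 90 and 36 with a pseudocount of 5, 39, 80 and 29 at a mean of at least 20 TPM, and 209, 530 and 432 with no filter. At a mean of at least 1 TPM footprints gave 474 and TE 299. Without centring mRNA gave 527 and TE 330. With 1 inhibitor label left out the ranges were 66 to 468, 221 to 887 and 706 to 817.

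Agreement gave 23 genes in mRNA, 90 in footprints and 17 in TE. These became 10, 25 and 6 with a pseudocount of 5, 4, 26 and 3 at 20 TPM, 39, 168 and 65 at 1 TPM, and 49, 190 and 94 with no filter. Without centring mRNA gave 107 and TE 49. TE paired by label gave 40 and crossed 38.

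List medians at least 0.2 from 0 numbered 25, and 15 at 20 TPM, 41 with no filter, 69 without centring, and 36 to 41 with a label left out. Without centring the mRNA medians turned negative for p53-induced genes (-0.023), ER chaperones (-0.015), translocon genes (-0.063) and lysosomal genes (-0.031). With a label left out, the TE median of mitochondrially encoded genes ran from -0.11 to 0.73, HSPA1B TE from -1.70 to 0.041 and the footprint ratio of UNKL from -0.013 to 1.28. No other list median at least 0.2 from 0 reversed under the 12 alternatives. No other ratio past 1.5-fold did so among the genes ranked by pooled ratio or by agreement. Genes named only as list members were not run through the alternatives. Among them, the TE of CTSA was -0.78 pooled and 0.075 within the PRMT1 label. The causes were not tested, except that filters and left-out labels change the genes or libraries used. Depth is unknown, so low genes cannot be given a limit.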
